A study of Mus musculus with 15 samples.

Results

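The genes described here are the hnRNP and SR families of splicing factors in mouse skeletal muscle. They were taken as all gene symbols of the count table that begin with Hnrn or Srsf, without the symbols marked -ps, at a mean of at least 1 CPM over all libraries (CPM, counts scaled to a common library total). Of 22798 symbols in the table, 32 begin this way, 2 carry -ps (at a mean of at most 0.0614 CPM), and the remaining 30 made up the set, 20 of them Hnrn and 10 Srsf genes. The lowest mean was 5.40 CPM (Srsf9), so that a minimum of 5 CPM would have kept the same 30 genes, and all 30 passed the filter on low counts and were tested among 17975 genes. They lie on 16 chromosomes.

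The 15 libraries came from skeletal muscle of C57BL/6 mice aged 12 months, on a normal diet and fasted overnight: 3 labelled CD47-KO (CD47-/-, without the thrombospondin receptor CD47), 6 from mice that had exercised and 6 from sedentary wild-type mice. The labels do not say whether each library is a separate animal, so p-values measure the spread between libraries, which may be technical. Bulk tissue holds nuclei of many cell types, and fewer cells of a type cannot be told apart from less RNA per cell.

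Pre-mRNA is bound by both families while it is being transcribed. SR proteins carry RNA recognition motifs and a domain rich in arginine and serine; bound to exonic enhancers, they help recruit the U1 particle and the U2 auxiliary factor to the neighbouring splice sites. The hnRNP proteins coat nascent transcripts, and several of them, hnRNP A1 foremost, often act against SR proteins by silencing exons. The balance between the families is known to set the inclusion of many alternative exons, and skeletal muscle splices long structural transcripts such as those of titin and the troponins in many forms. Both families also regulate themselves: many of their genes hold exons or introns whose inclusion sends the transcript to nonsense-mediated decay. In the annotation of GRCm38 used here, 19 of the 30 genes (63.3%) had a transcript marked for nonsense-mediated decay, against 27.3% of the 14078 protein-coding genes tested, and 22 had a retained-intron transcript, against a share of 56.0% of protein-coding genes.

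Base composition varies widely within the families, and it is shown here first because the fold changes of the libraries labelled CD47-KO followed it. The A/B type hnRNPs A0, A1, A2/B1 and A3 are paralogs with homologous RNA recognition motifs, so that the matching stretch of coding sequence can be compared. The 60 bases around the RNP-1 element of the second motif, the conserved strand that contacts RNA, are given 5′ to 3′ from GRCm38, with the 24 bases of the element in capitals. Hnrnpa0 (chr13:58127858-58127917, minus strand), Hnrnpa1 (chr15:103242041-103242100, plus strand), Hnrnpa2b1 (chr6:51466508-51466567, minus strand) and Hnrnpa3 (chr2:75662034-75662093, plus strand) read as follows.
Hnrnpa0: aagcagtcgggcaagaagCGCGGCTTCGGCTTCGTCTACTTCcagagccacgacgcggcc
Hnrnpa1: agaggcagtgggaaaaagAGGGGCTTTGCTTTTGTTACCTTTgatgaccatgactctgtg
Hnrnpa2b1: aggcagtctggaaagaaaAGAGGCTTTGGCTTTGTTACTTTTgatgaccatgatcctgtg
Hnrnpa3: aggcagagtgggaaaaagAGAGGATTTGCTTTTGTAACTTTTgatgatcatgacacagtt
All 20 codons of this stretch end in G or C in Hnrnpa0, against 9 of 20 in Hnrnpa1, 7 of 20 in Hnrnpa2b1 and 5 of 20 in Hnrnpa3. The same order held over the whole coding sequence, where the third position was G or C in 93.8% of codons in Hnrnpa0, 42.4% in Hnrnpa1, 32.3% in Hnrnpa2b1 and 31.7% in Hnrnpa3. Over all annotated exons, GC content was 55.4% in Hnrnpa0, 44.2% in Hnrnpa1, 39.6% in Hnrnpa2b1 and 39.8% in Hnrnpa3. Across the 30 genes exonic GC content ran from 37.3% in Hnrnph1 to 55.4% in Hnrnpa0, with a median of 41.6%, against a median of 49.4% of all 17910 tested genes with a known GC content. Most of these genes are therefore AT-rich for this tissue, and 16 of 30 lie under 42%.

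The promoters, in contrast, were GC-rich. RefSeq promoter sequences of GRCm38.p6 (250 bases before to 50 after the start) were found for 28 of the 30 genes, all but Hnrnpll and Hnrnpul2, and had a median GC content of 66.7%, against 59.7% over the 13379 promoters of symbols in the table. The letters CCAAT, searched on both strands, occurred in 16 of 28 promoters (57.1%), against 38.0% of all, and TATAA in 8 (28.6%), against 15.04%. A match is a description of the letters only.

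Depth was high in every library, with total counts of 76005277 to 84364189 in CD47-KO, 54851831 to 77628546 in exercise and 50928458 to 70774311 in sedentary libraries. Counts were scaled to CPM over TMM-adjusted library sizes; these levels are not per length and are compared between libraries, not between genes. Cd47 itself was 11.5 to 12.1 CPM in the libraries labelled CD47-KO, 10.8 to 15.7 CPM in exercise and 11.4 to 16.4 CPM in sedentary libraries, a log2 fold change of −0.26 (SE 0.166) against sedentary with an adjusted p of 0.295 in edgeR's quasi-likelihood test (exact permutation test of the levels, two-sided p = 0.0952). After the GC correction described below it was −0.996 (adjusted p = 0.00517 in edgeR), a call of lower Cd47. As counted, the table thus does not show the loss of Cd47 that the label states (whether the allele removes the counted exons is not given), and the group is called by its label throughout. The defining markers of muscle fibres (Acta1, Ckm, Tnnt3, Mylpf, Ttn and Des) were present in all libraries, with summed levels of 58508 to 74547 CPM in CD47-KO, 98880 to 131301 CPM in exercise and 79726 to 130866 CPM in sedentary libraries. The mitochondrial genome's own genes held 18.1 to 19.2% of counts in CD47-KO, 4.49 to 12.5% in exercise and 4.77 to 18.2% in sedentary libraries; the 18.2% is sedentary replicate 6 alone, and the other sedentary libraries were at most at 9.21%.

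Summed over the 30 genes, the level was 2418, 2322 and 2190 CPM in the libraries labelled CD47-KO, against 1178 to 1384 CPM (median 1282) in exercise and 1076 to 1374 CPM (median 1251) in sedentary libraries. The CD47-KO libraries stood apart from all 12 others, while the ranges of exercise and sedentary libraries overlapped. The hnRNP genes alone summed to 1752 to 1940 CPM in CD47-KO, 928 to 1083 CPM in exercise and 765 to 1072 CPM in sedentary libraries. For the SR genes the sums were 438 to 479 CPM in CD47-KO, 250.0 to 301 CPM in exercise and 264 to 312 CPM in sedentary libraries.

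The comparison of CD47-KO with sedentary muscle asks how muscle of mice labelled CD47-KO differs from that of sedentary wild-type mice. Of the 30 splicing factor genes, 18 were higher in the libraries labelled CD47-KO, 0 were lower and 12 did not pass the threshold (edgeR quasi-likelihood test, adjusted p under 0.05 over all genes tested). Over all genes tested, 11.9% were higher and 8.75% were lower. The median log2 fold change was 0.79 over the 30 genes, with a range of −0.43 (Srsf4) to 1.78 (Hnrnph2), against −0.11 over all genes tested. By family, 13 of 20 hnRNP genes and 5 of 10 SR genes were higher. In 20 of the 30 genes every CD47-KO library lay above every sedentary library, against a background of 15.7% of tested genes. The same 20 also lay above every exercise library, and in 0 genes did all CD47-KO libraries lie below all sedentary ones. For these last counts the share over all genes tested was not computed, so they cannot be read as particular to the 30 genes. Against exercise, 18 were higher as well, with 0 lower, beside 12.2% and 8.34% of all genes tested.

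These counts stand beside a trend over the whole table. Log2 fold changes between CD47-KO and sedentary libraries fell with exonic GC content over all genes tested (Spearman's rho −0.57 across genes) and over the 30 genes (rho −0.75), given as descriptions since genes are not independent replicates and share the libraries. Among tested genes with a GC content under 42%, 47.1% were higher in CD47-KO; the share was 17.7% between 42 and 48% and 1.56% over 48%. Of the splicing factor genes in the same ranges, 13 of 16, 4 of 8 and 1 of 6 were higher. Under 42%, the median log2 fold change was 1.22 for the 16 splicing factor genes and 1.23 for all genes tested, so that in this range the median of the splicing factor genes was close to that of all AT-rich genes tested. Between 42 and 48% the medians were 0.62 for the splicing factor genes and 0.32 for all genes, and over 48% they were 0.18 and −0.43. What sets the trend was not tested. The main results below are therefore given as counted and after a correction that removes each library's own lowess trend with GC content.

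After the correction, 4 of the 30 genes were higher in CD47-KO than in sedentary libraries (Hnrnpa0, Hnrnpa1, Hnrnpdl and Hnrnpl) and 2 were lower (Hnrnpc and Srsf3), beside 3.86% higher and 4.0% lower over all genes tested. The median log2 fold change of the 30 genes became 0.040, with 16 of 30 above 0. Over the 30 genes the corrected values still followed GC content, now rising with it (Spearman's rho 0.39 across genes). Their medians were −0.17 under 42%, 0.24 between 42 and 48% and 0.41 over 48%. Both genes called lower lie under 42%, and the 4 called higher lie above it. Of the 18 calls made on the uncorrected counts, 3 kept both call and direction: Hnrnpa0, Hnrnpa1 and Hnrnpdl. Against exercise, 5 were higher (Hnrnpa0, Hnrnpa1, Hnrnpdl, Hnrnph3 and Srsf1) and 1 was lower (Hnrnpc) after the correction, beside 4.07% and 3.92% of all genes tested. The counts of corrected calls depended on single libraries: against sedentary, 1 gene was called higher without CD47-KO replicate 1 and 1 without CD47-KO replicate 2, and 2 were without CD47-KO replicate 3 or without sedentary replicate 2, 4 or 5. The count of genes lower went to 0 without CD47-KO replicate 2 or 3, and to 1 without CD47-KO replicate 1, exercise replicate 2, 5 or 6, or sedentary replicate 2, 4 or 5. Against exercise, 2 genes were called higher without CD47-KO replicate 1, and 3 without CD47-KO replicate 2 or 3, exercise replicates 2 to 6 or sedentary replicate 3. The count of genes lower than in exercise went to 0 without CD47-KO replicate 2 or 3, and to 2 without sedentary replicate 6.

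**Figure D1:**
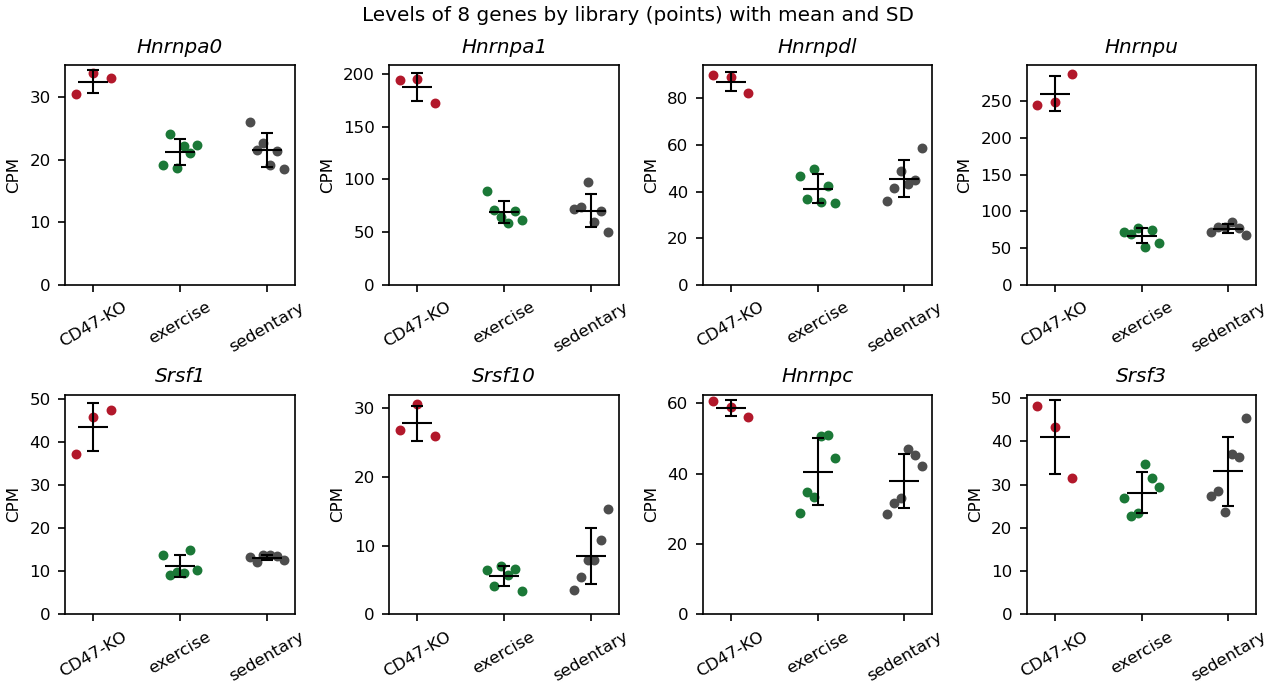
Levels in CPM (vertical axes, from 0) of 8 genes in each library (points), with the mean and SD of each group, for CD47-KO (3 libraries), exercise (6) and sedentary (6). The CD47-KO libraries lie above all others for Hnrnpa0, Hnrnpa1, Hnrnpdl, Hnrnpu, Srsf1, Srsf10 and Hnrnpc, while for Srsf3 they overlap both other groups.

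The A/B type proteins are abundant binders of nascent RNA with paired RNA recognition motifs. Of their 7 genes, 5 were higher in CD47-KO than in sedentary libraries, beside 11.9% of all genes tested. Hnrnpa0 (chromosome 13, 58125879 to 58128556, minus strand) codes for a small member known to bind AU-rich elements of mRNAs and is annotated with 1 transcript. Its level was 30.4, 33.9 and 33.1 CPM in CD47-KO libraries, against 18.7 to 24.1 CPM (median 21.6) in exercise and 18.5 to 26.1 CPM (median 21.5) in sedentary libraries. All CD47-KO libraries were above all others, although as the most GC-rich of the 30 genes it lies where other tested genes mostly had negative fold changes. Against sedentary the log2 fold change was 0.59 (SE 0.148, adjusted p = 0.00993 in edgeR) as counted and 1.05 (SE 0.137, adjusted p = 3.5e-04) after the GC correction. The corrected call of Hnrnpa0 held in all 15 fits that left out 1 library each, with log2 fold changes of 1.01 to 1.10, and against exercise it was 1.06 (adjusted p = 2.3e-04). The uncorrected call against sedentary was lost without CD47-KO replicate 2 (log2 fold change 0.51, adjusted p = 0.0742).

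Hnrnpa1 (chromosome 15, 103240432 to 103246692, plus strand), the classical exon silencer, was 194, 195 and 172 CPM in CD47-KO libraries, against 58.6 to 89.0 CPM (median 67.1) in exercise and 49.8 to 97.1 CPM (median 71.0) in sedentary libraries. The groups did not overlap, and the log2 fold change against sedentary was 1.41 (SE 0.193, adjusted p = 1.4e-04 in edgeR). After the correction it was 0.84 (SE 0.184, adjusted p = 0.0110); this call was lost without CD47-KO replicate 1 or 2, at an adjusted p of up to 0.0597. Of the 75-base windows of its longest transcript, 26.9% also occur, on either strand, in transcripts of other genes, so that its counts may include reads of copies.

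Hnrnpdl, whose protein resembles hnRNP D and shuttles between nucleus and cytoplasm, was 90.02, 89.0 and 82.4 CPM in CD47-KO libraries, against 35.3 to 49.9 CPM (median 39.6) in exercise and 35.8 to 58.8 CPM (median 44.1) in sedentary libraries. Its log2 fold change against sedentary was 0.94 (SE 0.172, adjusted p = 0.00128 in edgeR) as counted and 0.73 (SE 0.194, adjusted p = 0.0306) after the correction. At 46.9% GC it lies near the middle of the range, and the correction changed it little. The corrected call was lost without any 1 of the CD47-KO libraries or without sedentary replicate 2, 4 or 5 (adjusted p up to 0.127). It was also lost with gene length corrected as well (0.66, adjusted p = 0.0570), with GC content of the longest transcript (0.62, adjusted p = 0.0513) and with numbers 4 to 6 alone (0.56, adjusted p = 0.0784). Against exercise the corrected log2 fold change of 0.92 (adjusted p = 0.00736) was past the threshold in all 15 fits that left out a library.

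Hnrnpa2b1, which codes for core proteins of the particles that package nascent RNA, was 388, 366 and 278 CPM in CD47-KO libraries, against 141 to 179 CPM (median 161) in exercise and 92.5 to 173 CPM (median 158) in sedentary libraries. The log2 fold change against sedentary was 1.24 (SE 0.193, adjusted p = 3.8e-04 in edgeR) as counted and −0.18 (SE 0.228, adjusted p = 0.730) after the correction. The groups did not overlap as counted, and on the corrected scale the CD47-KO levels of 175, 155 and 118 CPM fell within the sedentary range of 97.7 to 212 CPM. Hnrnpa1 and Hnrnpa2b1, paralogs with a similar change as counted, thus differed after the correction, and the difference between the 2 genes was not tested.

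Hnrnpd, whose AUF1 proteins bind AU-rich elements and promote mRNA decay, averaged 47.0 ± 5.83 CPM in CD47-KO and 27.5 ± 5.66 CPM in sedentary libraries (SD, n = 3 and 6) and was called higher as counted (log2 fold change 0.77, adjusted p = 0.00899 in edgeR), but not after the correction (−0.37, adjusted p = 0.433). Hnrnpab, an A/B relative, did not pass the threshold, at 89.7 ± 13.5 CPM in CD47-KO and 90.9 ± 8.60 CPM in sedentary libraries. Hnrnpa3 had the widest spread of the set: 13.8, 48.7 and 48.4 CPM in CD47-KO libraries, against 6.86 to 22.0 CPM in exercise and 0.433 to 16.7 CPM in sedentary libraries. Its log2 fold change of 1.62 carried an SE of 0.627 and did not pass the threshold (adjusted p = 0.0787 in edgeR). CD47-KO replicate 1 and sedentary replicate 4 are the libraries that stand apart. Without sedentary replicate 4 the value was 1.41 and passed the threshold (adjusted p = 0.0140), and without CD47-KO replicate 1 it was 2.06 and did not (adjusted p = 0.0545). After the GC correction, with all libraries, it was 0.15 (SE 0.654). Of the windows of its longest transcript, 27.9% are shared with other genes.

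Hnrnpc codes for the protein that binds uridine runs and packages long stretches of nascent RNA as tetramers. Its level was 60.6, 59.1 and 56.1 CPM in CD47-KO libraries, against 28.7 to 51.1 CPM (median 39.7) in exercise and 28.7 to 47.0 CPM (median 37.5) in sedentary libraries. As counted, the CD47-KO libraries were above all others, with a log2 fold change against sedentary of 0.63 (SE 0.213, adjusted p = 0.0464 in edgeR). That call was lost without any 1 of the CD47-KO libraries and without sedentary replicate 1, 2 or 3, at adjusted p of up to 0.150. After the GC correction the sign turned, to −0.59 (SE 0.170, adjusted p = 0.0448), with corrected levels of 30.1, 27.9 and 26.4 CPM in CD47-KO, against 36.9 to 59.9 CPM in exercise and 37.7 to 46.2 CPM in sedentary libraries. The corrected call held in 6 of 15 fits that left out a library, with an adjusted p of up to 0.203 in the others (those without each CD47-KO library, exercise replicates 2, 5 and 6, and sedentary replicates 2, 4 and 5). With GC content taken from the longest transcript the value was −0.16 (adjusted p = 0.693). The direction of Hnrnpc thus depends on the treatment of GC content.

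**Figure D2:**
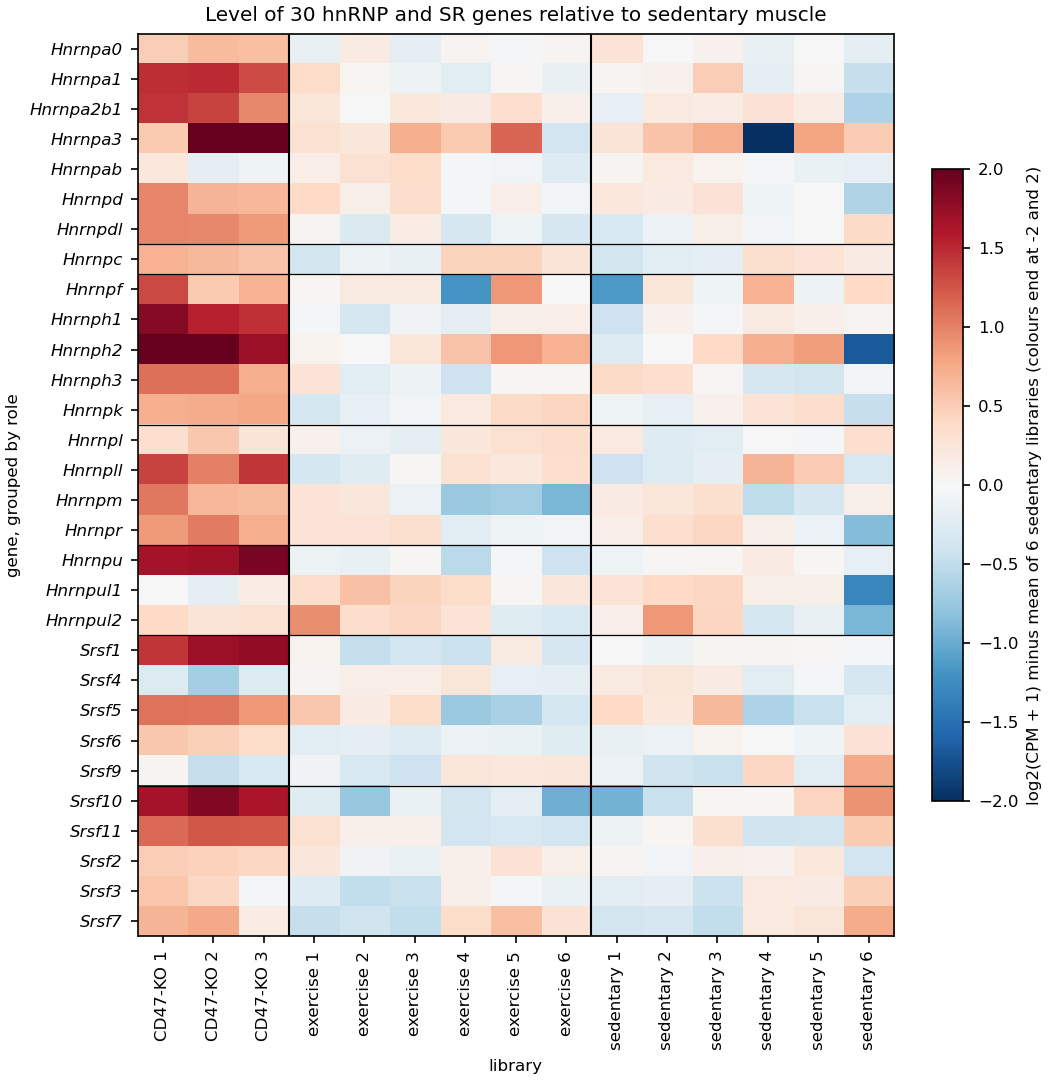
Each row is 1 of the 30 genes and each column 1 library, from CD47-KO (left) to exercise and sedentary; colour gives log2(CPM + 1) minus the mean of the 6 sedentary libraries, with colours ending at −2 and 2. The 3 CD47-KO columns are red for most genes, the bluest single cells are Hnrnpa3 in sedentary 4, Hnrnph2 and Hnrnpul1 in sedentary 6, and Hnrnpf in exercise 4 and sedentary 1, and Srsf5 and Hnrnpm differ between exercise 1 to 3 (redder) and exercise 4 to 6 (bluer).

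Among the proteins that bind poly(C) or runs of G, 4 of 5 genes were higher than in sedentary libraries as counted, beside 11.9% of all genes tested. After the correction 0 were called against sedentary. Hnrnph1 (chromosome 11, 50376990 to 50386528, plus strand), which binds G-runs through quasi-RNA recognition motifs, was 111, 92.5 and 86.2 CPM in CD47-KO libraries, against 24.1 to 33.9 CPM (median 29.6) in exercise and 22.8 to 35.0 CPM (median 32.5) in sedentary libraries. Its log2 fold change was 1.64 (SE 0.164, adjusted p = 1.4e-05 in edgeR) as counted and −0.18 (SE 0.202, adjusted p = 0.695) after the correction. It is the most AT-rich of the 30 genes, and its uncorrected groups were far apart. Its X-linked paralog Hnrnph2 averaged 70.7 ± 8.33 CPM in CD47-KO and 20.6 ± 10.3 CPM in sedentary libraries (log2 fold change 1.78, adjusted p = 0.00378; 0.57, adjusted p = 0.370 after the correction). Hnrnph3 averaged 22.1 ± 3.33 CPM in CD47-KO and 11.0 ± 2.66 CPM in sedentary libraries (1.01, adjusted p = 0.00319 in edgeR). For Hnrnph3 the corrected log2 fold change was 0.61 (adjusted p = 0.0877) against sedentary and 0.72 (adjusted p = 0.0441) against exercise. The call against exercise held in 6 of 15 fits without 1 library; it was lost without any CD47-KO library, exercise replicates 2 to 6 or sedentary replicate 3, at an adjusted p of up to 0.189, and on the longest transcript (0.49, adjusted p = 0.211). Hnrnpk, the poly(C)-binding protein with KH domains, averaged 91.9 ± 2.11 CPM in CD47-KO and 55.7 ± 11.4 CPM in sedentary libraries (0.72, adjusted p = 0.0208), a call lost without CD47-KO replicate 2 (0.68, adjusted p = 0.0882) or 3 (0.75, adjusted p = 0.0553); the corrected value was −0.29 (adjusted p = 0.411). Hnrnpf did not pass the threshold, at 62.6 ± 19.5 CPM in CD47-KO and 35.9 ± 13.7 CPM in sedentary libraries. Its corrected log2 fold change against sedentary was 0.95, the highest of these 5 genes, and was not past the threshold either. Corrected levels of Hnrnpf were 92.2, 52.0 and 60.1 CPM in CD47-KO, against 12.2 to 54.6 CPM in sedentary libraries. Hnrnpf shares 61.7% of the windows of its longest transcript with other genes.

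Of the 4 genes for hnRNPs L, LL, M and R, Hnrnpll and Hnrnpr were higher as counted. Hnrnpll, the splicing regulator first known for CD45 in lymphocytes, averaged 23.1 ± 3.54 CPM in CD47-KO and 9.41 ± 3.67 CPM in sedentary libraries (log2 fold change 1.29, adjusted p = 0.00319 in edgeR; −0.12, adjusted p = 0.809 after the correction). Hnrnpr averaged 27.6 ± 3.18 CPM in CD47-KO and 15.2 ± 4.42 CPM in sedentary libraries (0.86, adjusted p = 0.0178), and the call was lost without CD47-KO replicate 2 (0.73, adjusted p = 0.112); the corrected value was −0.27 (adjusted p = 0.659). Hnrnpl, which binds CA repeats, was 67.5, 77.9 and 63.9 CPM in CD47-KO libraries, against 46.2 to 68.4 CPM (median 59.5) in exercise and 44.4 to 67.7 CPM (median 52.4) in sedentary libraries. These groups overlapped, with a log2 fold change of 0.37 (SE 0.181, adjusted p = 0.160 in edgeR) as counted. After the correction it was 0.67 (SE 0.193, adjusted p = 0.0443), with corrected levels of 77.8, 89.2 and 74.8 CPM in CD47-KO, against 43.2 to 64.5 CPM in exercise and 40.6 to 68.1 CPM in sedentary libraries. This call held in 5 of 15 fits without 1 library; it was lost without any CD47-KO library, exercise replicate 1 or 4, or any of sedentary replicates 1 to 5 (adjusted p up to 0.196), with length corrected as well (0.59, adjusted p = 0.123) and with numbers 4 to 6 alone (0.50, adjusted p = 0.0556). Hnrnpa0 and Hnrnpl are described in full because of their corrected calls, a choice made after their values were seen. Hnrnpm averaged 60.7 ± 10.4 CPM in CD47-KO, 29.0 ± 10.8 CPM in exercise and 35.4 ± 7.95 CPM in sedentary libraries, and passed the threshold against exercise (1.07, adjusted p = 0.0117) but not against sedentary (0.78, adjusted p = 0.0583).

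Hnrnpu (chromosome 1, 178321108 to 178337797, minus strand), also called scaffold attachment factor A for its binding to nuclear DNA and RNA, had the smallest p-value of the set. Its level was 244, 249 and 287 CPM in CD47-KO libraries, against 52.3 to 77.7 CPM (median 70.2) in exercise and 68.3 to 85.7 CPM (median 77.9) in sedentary libraries. The lowest CD47-KO library was well above the highest of the other 12. The log2 fold change against sedentary was 1.76 (SE 0.158, adjusted p = 7.2e-06 in edgeR) as counted and 0.39 (SE 0.204, adjusted p = 0.279) after the correction. Against exercise the log2 fold change was 1.96 (SE 0.158, adjusted p = 1.5e-06), and 0.50 (adjusted p = 0.151) after the correction. The U-like genes were not called: Hnrnpul1 averaged 71.9 ± 8.69 CPM in CD47-KO and 77.3 ± 25.1 CPM in sedentary libraries, and Hnrnpul2 104 ± 5.22 CPM in CD47-KO and 90.3 ± 38.7 CPM in sedentary libraries, with adjusted p of 0.843 and 0.713. Their GC contents were 47.5% and 47.2%.

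**Figure D3:**
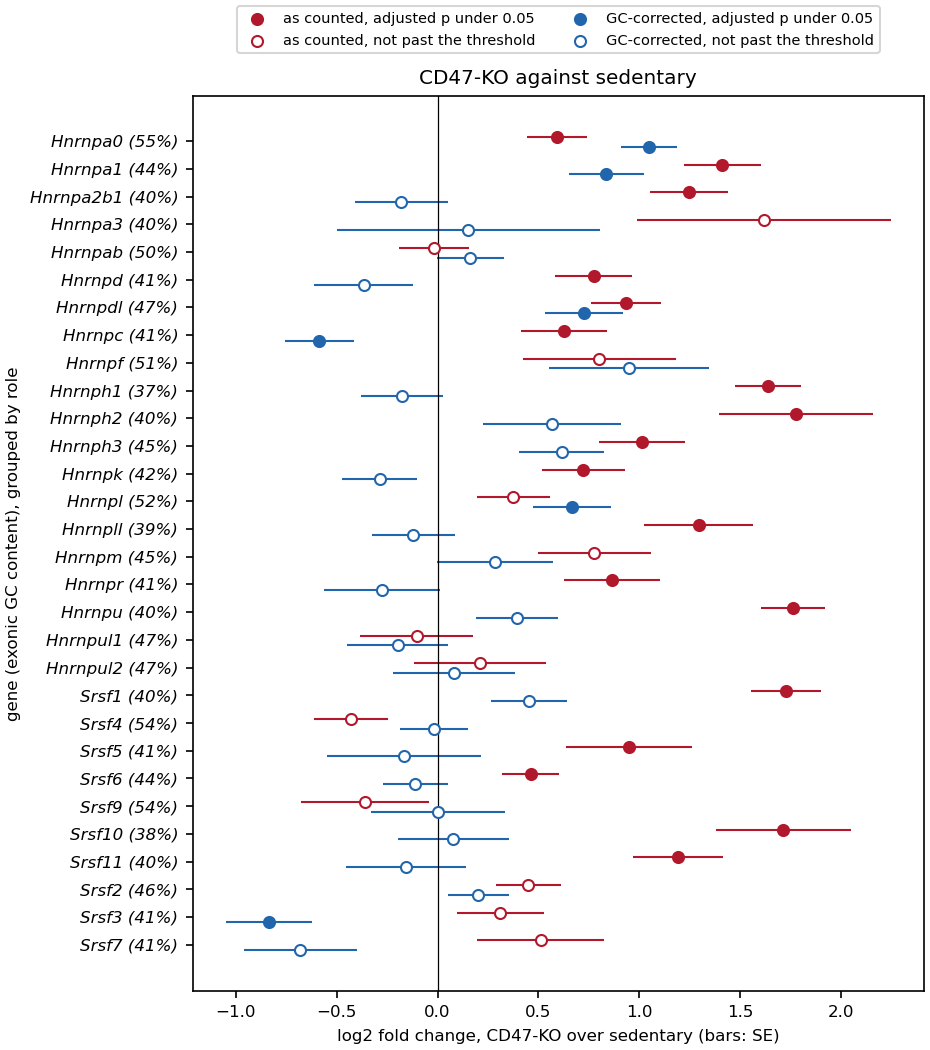
Log2 fold change of CD47-KO over sedentary (horizontal axis, bars are SE) for each of the 30 genes, as counted (red) and after the GC correction (blue); filled points have an adjusted p under 0.05, and the exonic GC content is given beside each name. Red points lie mostly to the right of 0, at a median of 0.79, and blue points scatter around 0, at a median of 0.040, with Hnrnpa0, Hnrnpa1, Hnrnpdl and Hnrnpl filled on the right and Hnrnpc and Srsf3 on the left.

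Of the SR proteins with 2 RNA recognition motifs, Srsf1, Srsf5 and Srsf6 were higher in CD47-KO libraries. Srsf1 (chromosome 11, 88047373 to 88053755, plus strand), the prototype of the family, was 37.2, 45.8 and 47.5 CPM in CD47-KO libraries, against 9.12 to 14.9 CPM (median 9.98) in exercise and 12.1 to 13.7 CPM (median 13.3) in sedentary libraries. The sedentary libraries agreed closely and lay far below the CD47-KO libraries. The log2 fold change was 1.73 (SE 0.173, adjusted p = 1.4e-05 in edgeR) as counted and 0.45 (SE 0.187, adjusted p = 0.162) after the correction. Against exercise the values were 1.96 (SE 0.173, adjusted p = 2.7e-06) and 0.63 (SE 0.186, adjusted p = 0.0475), the corrected call holding in 4 of 15 fits without 1 library, with adjusted p of up to 0.184 in those without any CD47-KO library, exercise replicates 2 to 6 and sedentary replicates 2, 3 and 5. With numbers 1 to 3 alone the corrected value of Srsf1 was 0.60 (adjusted p = 0.0549).

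Srsf5, an SR protein known as an insulin-responsive and immediate early factor in some cells, was 110, 109 and 94.9 CPM in CD47-KO libraries, against 30.5 to 75.3 CPM (median 49.1) in exercise and 33.1 to 81.7 CPM (median 52.3) in sedentary libraries. The log2 fold change was 0.95 (SE 0.311, adjusted p = 0.0403 in edgeR) as counted and −0.17 (SE 0.381, adjusted p = 0.861) after the correction. Both other groups were spread widely, along their replicate numbers, and the call was lost without any CD47-KO library or without sedentary replicate 4 or 5 (adjusted p up to 0.138). Srsf6 averaged 62.4 ± 3.54 CPM in CD47-KO and 45.4 ± 5.46 CPM in sedentary libraries (0.46, adjusted p = 0.0278), lost without CD47-KO replicate 1 (0.48, adjusted p = 0.0773) or 2 (0.41, adjusted p = 0.125) or sedentary replicate 1 (0.38, adjusted p = 0.0627); the corrected value was −0.11 (adjusted p = 0.776). Srsf4 and Srsf9, the GC-rich genes of the family at 54.1% and 53.7%, were the ones with negative values. Srsf4 averaged 19.95 ± 3.18 CPM in CD47-KO and 26.8 ± 4.39 CPM in sedentary libraries (−0.43, adjusted p = 0.109), and Srsf9 averaged 4.54 ± 1.11 CPM in CD47-KO and 5.82 ± 2.47 CPM in sedentary libraries (−0.36, adjusted p = 0.474). Their corrected values were −0.019 and 0.0027.

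Of the SR genes with 1 RNA recognition motif, Srsf10 and Srsf11 were higher. Srsf10, a protein that acts as a general splicing repressor when dephosphorylated, for example after heat shock, was 26.8, 30.6 and 25.95 CPM in CD47-KO libraries, against 3.42 to 6.95 CPM (median 6.08) in exercise and 3.53 to 15.3 CPM (median 7.93) in sedentary libraries. The log2 fold change was 1.71 (SE 0.335, adjusted p = 0.00192 in edgeR) against sedentary and 2.32 (SE 0.335, adjusted p = 1.6e-04) against exercise, the largest of the set in that comparison. After the correction the values were 0.08 (SE 0.276, adjusted p = 0.917) against sedentary and 0.44 (adjusted p = 0.377) against exercise. Srsf11 was 59.2, 63.8 and 63.2 CPM in CD47-KO libraries, against 19.9 to 32.7 CPM (median 24.8) in exercise and 19.7 to 38.2 CPM (median 25.9) in sedentary libraries. Its groups were separate as counted (log2 fold change against sedentary 1.19, SE 0.221, adjusted p = 0.00136), and the corrected value was −0.15 (adjusted p = 0.833).

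Srsf2, which binds exonic enhancers and marks nuclear speckles, was 75.8, 74.3 and 71.6 CPM in CD47-KO libraries, against 48.7 to 65.8 CPM (median 58.01) in exercise and 40.7 to 62.3 CPM (median 56.4) in sedentary libraries. Although these libraries did not overlap, the log2 fold change of 0.45 (SE 0.160) did not pass the threshold (adjusted p = 0.0560 in edgeR; 0.20, adjusted p = 0.493 after the correction). Exons of Mettl23 and Mfsd11 on the opposite strand overlap 25.3% of its exonic length, and the kit does not mark strand. Srsf3, a small SR protein that also couples splicing to mRNA export, was 48.1, 43.2 and 31.6 CPM in CD47-KO libraries, against 22.7 to 34.7 CPM (median 28.2) in exercise and 23.7 to 45.5 CPM (median 32.4) in sedentary libraries. The groups overlapped, with a log2 fold change of 0.31 (SE 0.216, adjusted p = 0.349) as counted, and the value turned to −0.84 (SE 0.213, adjusted p = 0.0242) after the correction. Corrected levels were 25.0, 21.5 and 15.6 CPM in CD47-KO, against 27.1 to 40.7 CPM in exercise and 26.5 to 50.7 CPM in sedentary libraries; the call was lost without CD47-KO replicate 2 or 3 (adjusted p up to 0.168). Srsf7, its nearest relative, which carries a zinc knuckle, averaged 25.2 ± 5.61 CPM in CD47-KO and 17.7 ± 6.51 CPM in sedentary libraries (0.51, adjusted p = 0.281; −0.68, adjusted p = 0.163 after the correction).

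**Figure D4:**
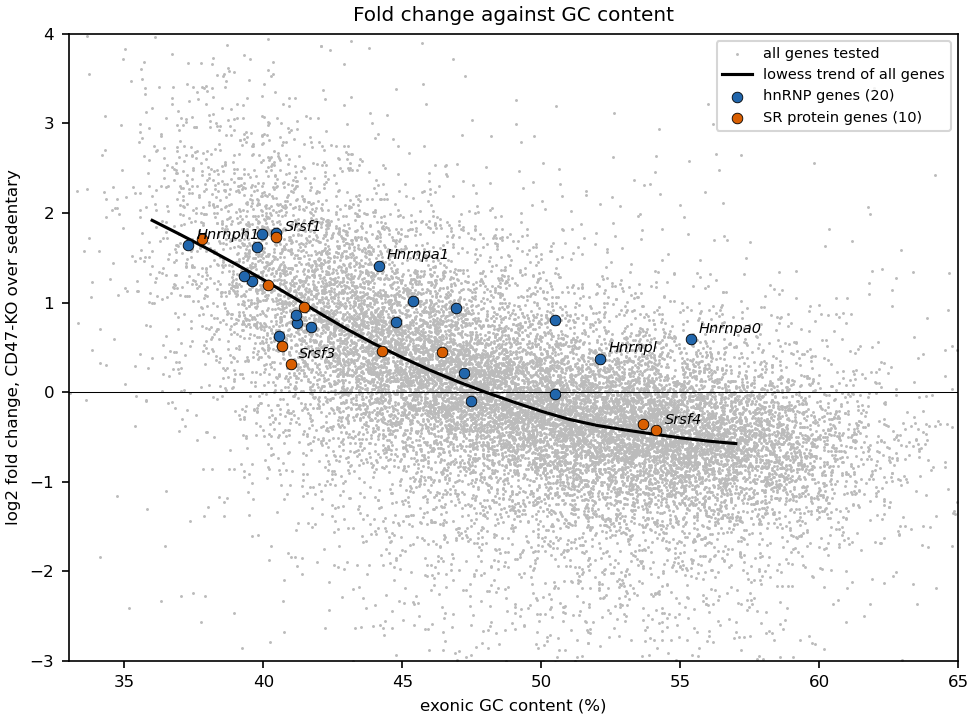
Log2 fold change of CD47-KO over sedentary (vertical axis, drawn from −3 to 4) against exonic GC content in percent (horizontal axis, drawn from 33 to 65) for all tested genes (grey, with their lowess trend as a black line), 20 hnRNP genes (blue) and 10 SR genes (orange). The splicing factor genes run down with GC content as the grey cloud does. Of the genes named in the plot, Hnrnpa0, Hnrnpa1, Hnrnpl and Srsf1 sit clearly above the line and Srsf3 below it. Hnrnpf, not named in the plot, also sits above it.

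Against exercise, which shares the CD47-KO libraries with the comparison above, the genes given in full had similar values as counted. Their log2 fold changes were 1.44 for Hnrnpa1 (adjusted p = 8.8e-05 in edgeR), 1.10 for Hnrnpa2b1 (adjusted p = 8.0e-04), 1.08 for Hnrnpdl (adjusted p = 3.4e-04), 1.71 for Hnrnph1 (adjusted p = 6.3e-06), 1.30 for Srsf11 (adjusted p = 5.9e-04) and 1.05 for Srsf5 (adjusted p = 0.0237). Hnrnpc (0.53, adjusted p = 0.0907), Srsf3 (0.54, adjusted p = 0.0852) and Srsf2 (0.36, adjusted p = 0.122) did not pass the threshold. After the correction the values were 0.85 for Hnrnpa1 (adjusted p = 0.00847, lost without CD47-KO replicate 1 at 0.0512) and −0.76 for Hnrnpc (adjusted p = 0.0107, lost without CD47-KO replicate 2 or 3, at up to 0.0721, and on the longest transcript, at −0.30 with an adjusted p of 0.389). The corrected values of Hnrnpa2b1 (−0.41), Hnrnph1 (−0.26), Srsf11 (−0.13), Srsf5 (−0.095), Srsf3 (−0.67, adjusted p = 0.0636) and Srsf2 (0.13) did not pass it.

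The comparison of exercise with sedentary muscle asks for the effect of exercise. Of the 30 genes, 0 were called by edgeR, where 0.0% of all 17975 genes were called, and 1 of the 30 (Srsf10) had an unadjusted p under 0.05. DESeq2 called 9 genes in all and limma-voom 0, with 0 of the 30 among them in either, and the fit with paired replicate numbers called 0. The median log2 fold change of the 30 genes was −0.0041, against −0.032 over all genes tested, and the range was −0.61 to 0.26, with SEs of 0.116 to 0.534. Of the 30 values, 15 were above 0, 13 of the 20 hnRNP genes and 2 of the 10 SR genes.

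Srsf10 was lowest relative to its spread, at 3.42 to 6.95 CPM (median 6.08) in exercise and 3.53 to 15.3 CPM (median 7.93) in sedentary libraries, with a log2 fold change of −0.61 (SE 0.287). All exercise libraries lay within the sedentary range or just under it. Within the libraries numbered 1 to 3 the value was 0.039 and within those numbered 4 to 6 it was −1.10; the test of the difference between these sets gave an adjusted p of 0.967 in edgeR. Srsf6 was 37.6 to 41.5 CPM (median 39.0) in exercise and 40.7 to 55.2 CPM (median 43.7) in sedentary libraries (log2 fold change −0.20, SE 0.116). Srsf1 was 9.12 to 14.9 CPM (median 9.98) in exercise and 12.1 to 13.7 CPM (median 13.3) in sedentary libraries (−0.23, SE 0.147). The exercise libraries of Srsf1 spread around the narrow sedentary range on both sides.

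On the other side, Hnrnpul1 was 73.4 to 109 CPM (median 92.8) in exercise and 28.6 to 96.2 CPM (median 82.8) in sedentary libraries (log2 fold change 0.25, SE 0.228). The low end of the sedentary range is a single library, replicate 6, without which the log2 fold change was 0.063. Hnrnpa2b1 was 141 to 179 CPM (median 161) in exercise and 92.5 to 173 CPM (median 158) in sedentary libraries (0.14, SE 0.163). Hnrnpd was 25.9 to 35.8 CPM (median 29.5) in exercise and 17.5 to 33.2 CPM (median 28.8) in sedentary libraries (0.14, SE 0.160). All 3 overlapped between the groups, and the adjusted p of each of these 6 genes was 1.000 in edgeR. A p that misses the threshold does not show that the groups are alike; the SEs above give the precision of each value.

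**Figure D5:**
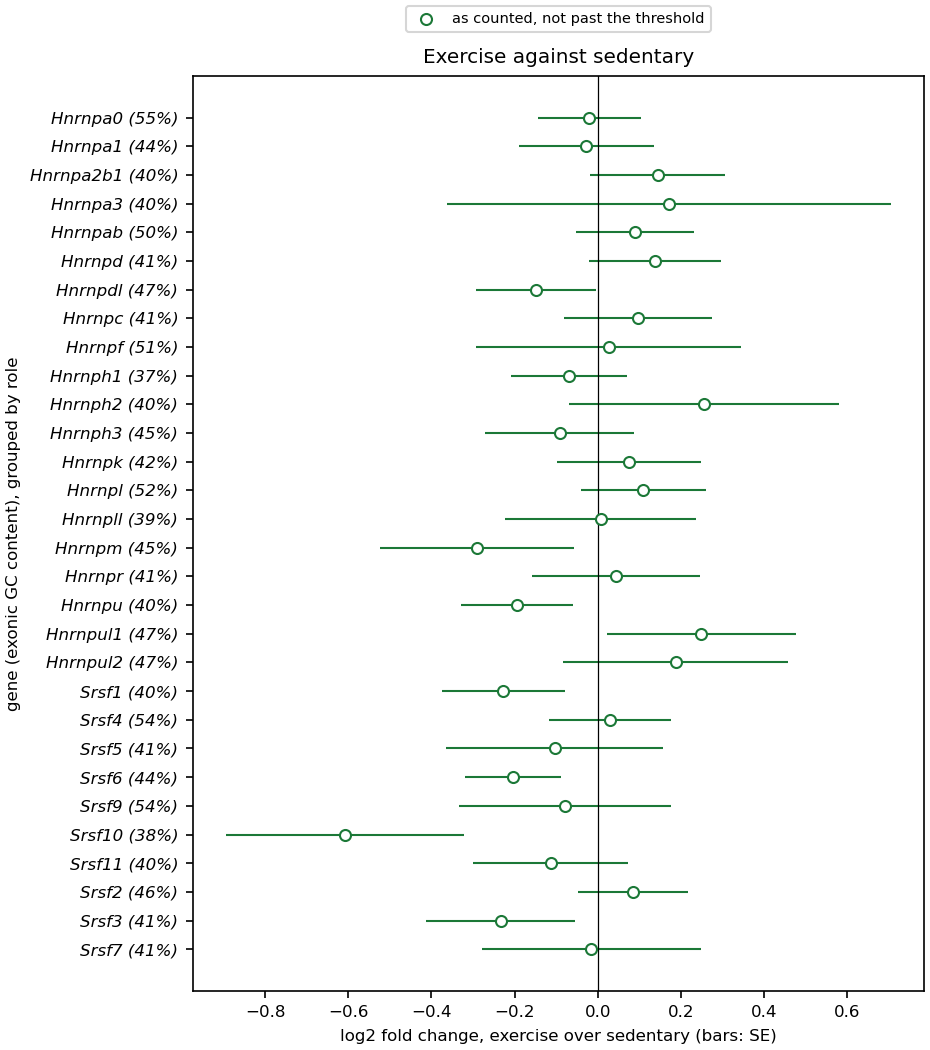
Log2 fold change of exercise over sedentary (horizontal axis, bars are SE) for each of the 30 genes, with the exonic GC content beside each name. All points are open, since 0 genes passed the threshold; they lie between −0.61 (Srsf10) and 0.26, without the order by GC content seen between CD47-KO and sedentary libraries (Spearman's rho across the 30 genes 0.15, against −0.75).

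Within the exercise and sedentary groups, some of these genes divided by replicate number, at a share near that of all genes tested. Libraries numbered 1 to 3 and 4 to 6 had separate ranges, over both groups together, in 6 of the 30 genes, beside 16.5% of all genes tested; no label names what the numbers stand for. Srsf5 was 57.8 to 81.7 CPM (median 67.5) in numbers 1 to 3 and 30.5 to 44.6 CPM (median 35.4) in numbers 4 to 6. Hnrnpab (median 101 and 85.1 CPM) and Hnrnpr (18.1 and 13.5 CPM) were higher in numbers 1 to 3 as well. Srsf7 (median 12.2 CPM in numbers 1 to 3 and 21.4 CPM in numbers 4 to 6), Srsf3 (25.3 and 35.5 CPM) and Hnrnpc (32.2 and 46.2 CPM) were lower there. Set against the CD47-KO libraries, sedentary numbers 1 to 3 alone gave 25 genes higher and 1 lower (Srsf4), beside 19.2% and 13.8% of all genes tested, and numbers 4 to 6 alone 18 higher and 0 lower, beside 15.7% and 11.8%. The effect of exercise did not differ detectably between the sets in any of the 30 genes (0 of 17072 genes past the threshold for the difference in edgeR; of the 30, Srsf10 alone had an unadjusted p under 0.05).

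With the group means removed, the levels of the genes were compared pair by pair over the 15 libraries. Spearman's rho was above 0 in 238 of 435 pairs, with a median of 0.039 and a lowest value of −0.91. Of these pairs, Hnrnph2 and Hnrnpk were the most alike (Spearman's rho 0.89 over 15 libraries), followed by Hnrnpm and Srsf5 (0.88), Hnrnpk and Hnrnpll (0.86), and Srsf3 and Srsf7 (0.84). Members of a pair share the libraries, and Srsf3, Srsf7 and Srsf5 follow the division by replicate number given above. The other genes of these pairs also had different medians in numbers 1 to 3 and 4 to 6, with overlapping ranges. They were 18.4 and 29.7 CPM for Hnrnph2, 50.0 and 68.1 CPM for Hnrnpk, 7.30 and 11.5 CPM for Hnrnpll, and 41.0 and 22.4 CPM for Hnrnpm. The part of the division in these likenesses was not tested.

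Other genes of the splicing machinery are given from lists chosen by their function. Over all genes tested, 11.9% were higher and 8.75% lower as counted, and 3.86% and 4.0% after the correction. Among tested genes under 42% GC, 47.1% were higher as counted. Some genes named below are AT-rich, such as Syncrip (37.4%), Rbm25 (38.0%), Ppig (39.0%) and U2surp (39.7%), while Prmt1 (55.6%) and Snrpb (52.1%) are GC-rich. Of 20 hnRNP genes known under other names, 7 were higher and 1 was lower in CD47-KO than in sedentary libraries, and 1 was higher after the correction. Syncrip, the hnRNP Q gene and closest relative of Hnrnpr, averaged 79.8 ± 1.11 CPM in CD47-KO and 21.5 ± 6.05 CPM in sedentary libraries (log2 fold change 1.89, adjusted p = 4.4e-05 in edgeR; 0.12, adjusted p = 0.778 after the correction). Ptbp3, a polypyrimidine tract binding protein, had a log2 fold change of 1.58 (0.17 after the correction), and Tardbp, which codes for TDP-43, 0.85 (−0.067 after the correction). Of 29 SR-related proteins, 16 were higher and 0 were lower, and 5 were higher and 1 was lower after the correction. Ppig, a nuclear cyclophilin with a domain rich in arginine and serine, averaged 61.7 ± 16.6 CPM in CD47-KO and 6.64 ± 1.20 CPM in sedentary libraries (3.22, adjusted p = 1.0e-06), and remained past the threshold after the correction (1.66, adjusted p = 0.00388). U2surp (1.96; 0.57 after the correction) and Rbm25 (2.51; 0.77 after the correction) were not called after it.

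Of 16 kinases and phosphatases that act on SR proteins, 7 were higher and 2 were lower as counted and 0 were called after the correction; Prpf4b (1.83; 0.66 after the correction), Srpk2 (0.98; −0.21 after the correction), which phosphorylates SR proteins in the cytoplasm, and Dyrk2 (0.98; 0.79, adjusted p = 0.0501 after the correction) had the smallest p-values. Of 14 genes for the nuclear transport and methylation of splicing factors, 2 were higher and 2 lower, and 1 was lower after the correction. That gene was Prmt1, the main arginine methyltransferase of hnRNP proteins, at 33.9 ± 5.57 CPM in CD47-KO and 73.3 ± 6.70 CPM in sedentary libraries (−1.11, adjusted p = 3.6e-04 in edgeR; −0.66, adjusted p = 0.0292 after the correction). Xpo1, the main nuclear export receptor, had a log2 fold change of 2.18 (0.94 after the correction) and Prmt7 of −0.71 (−0.41 after the correction).

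Among the particles of the spliceosome itself the change was mixed. Of 19 Snrp and Snrnp genes, which code for Sm proteins and proteins of several particles, 3 were higher and 4 lower. After the correction 0 were higher and 4 lower. Snrpb, which codes for the SmB protein, was 39.3 ± 2.70 CPM in CD47-KO and 71.0 ± 3.24 CPM in sedentary libraries. Its log2 fold change was −0.85 (adjusted p = 8.7e-04 in edgeR) as counted and −0.57 (adjusted p = 0.0486) after the correction. Snrnp48 (1.58; 0.41 after the correction) and Snrnp25 (−1.35; −0.96 after the correction), both of the minor spliceosome, went opposite ways as counted. Of 19 genes of the U2 particle and 3′ splice site recognition, 5 were higher and 2 lower, and 1 was higher and 3 lower after the correction; Sf3b1 (1.77; 0.37 after the correction), Dhx15 (1.24; −0.36) and Ddx46 (1.05; 0.33) were not called after it. Of 29 genes of the tri-snRNP, the Prp19 complex and catalytic steps, 11 were higher and 0 lower, and 5 were higher and 2 lower after the correction, among them Prpf39 (3.17; 1.27, adjusted p = 0.00444 after the correction) and Cwc27 (1.43; 0.90, adjusted p = 0.0122). Of 17 genes of nonsense-mediated decay and the exon junction complex, 3 were higher and 1 lower, and 2 were higher and 1 lower after the correction; Upf2, an adaptor of decay, remained past the threshold (2.16; 1.4996, adjusted p = 0.00444), while Smg1 (1.36; 0.41) and Upf3b (1.78; 0.92) did not.

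Between exercise and sedentary libraries 0 genes of any of these lists were called by edgeR. The smallest p-values belonged to Pcbp3 (log2 fold change −0.58), Tra2a (−0.67), Clk1 (−0.89), Carm1 (0.25), Snrpn (0.33), Sf3b5 (−0.33), Aqr (0.40) and Upf1 (0.36), 1 for each list in the order above.

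Markers of other cell types were read beside these results. The shares over all genes tested were 11.9% higher and 8.75% lower as counted, and 3.86% and 4.0% after the correction. Of the 6 muscle fibre markers, 4 were lower and 0 higher in CD47-KO than in sedentary libraries as counted, and 1 was lower after the correction. Summed levels in CD47-KO, exercise and sedentary libraries were 153 to 186, 172 to 335 and 143 to 391 CPM for 5 endothelial markers (0 higher and 1 lower), 16.7 to 23.9, 7.12 to 24.7 and 5.35 to 34.8 CPM for 5 macrophage markers (1 higher), and 72.4 to 77.7, 26.1 to 76.1 and 31.8 to 56.8 CPM for 5 satellite cell markers (1 higher). In the same order, 5 fibroblast markers summed to 286 to 338, 138 to 281 and 120 to 618 CPM (2 higher), 5 Schwann cell and nerve markers to 15.2 to 35.4, 16.2 to 87.6 and 27.96 to 182 CPM (1 lower), 5 adipocyte markers to 9.99 to 27.95, 0.537 to 58.2 and 2.15 to 37.3 CPM (0 called), and 5 blood markers to 173 to 284, 254 to 1235 and 215 to 827 CPM (0 called). Markers of liver were at or near 0 in CD47-KO libraries (0.128 to 0.229 CPM, against 0 to 10.7 CPM in exercise and 0.433 to 29.6 CPM in sedentary libraries), and 1 of 5 was called lower than in sedentary libraries. After the correction 1 fibroblast marker was higher. Of the other lists besides muscle fibre, 0 markers were called after it. The part of these differences in the levels of splicing factors was not tested.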

How the data were processed

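The authors deposited 1 table of gene counts, of 22798 symbols in 15 libraries, where each column matched a sample. The tools named per the submitters' processing notes are HTSeq 0.6.1, HISAT2 2.0.1 and Trimmomatic 0.30, with GRCm38 as the build; the strand setting is not given in the sources used here, and the library kit named in the labels does not mark strand. Values of 4, 8 and 12 made up 32.1 to 33.6% of values from 1 to 15 in CD47-KO libraries. In exercise libraries they made up 43.6 to 50.2% and in sedentary libraries 41.7 to 48.5%, so the deposited counts may not be counts of single reads. The symbols AY036118 and CT010467, named after clones, held 0.0327 to 0.0596% of counts in CD47-KO, 0.88 to 12.25% in exercise and 2.83 to 10.1% in sedentary libraries. Only these are meant by clone symbols here. Both differences coincide with the CD47-KO label, and their part in the comparisons was not tested. No library was a copy of another of its group (lowest chi-square per degree of freedom 78.1).

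From these counts, 17975 genes passed filterByExpr and were tested with edgeR 4.0.16 in R 4.3.3: TMM factors, a robust quasi-likelihood fit of all 15 libraries, a prior count of 2, and Benjamini-Hochberg adjustment over all genes, at 0.05. Levels are CPM over TMM-adjusted library sizes, and standard errors come from the fold change and its F statistic. Symbols were matched to GENCODE's annotation of GRCm38 (22711 found once, 48 several times, 39 not at all). GC content is that of the union of annotated exons; the correction fitted each library's deviation in log2-cpm by lowess (span 0.3) on it and passed the curve to edgeR as an offset. The fits were tested on simulated data. Alternatives were RLE factors, DESeq2 1.42.0, limma-voom 3.58.1, other filters, a fit without robust dispersion, only the groups compared, the replicate number as a block, the library sets, other GC corrections, a fit without mitochondrial and clone symbols, and leaving out each library.

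The members, the lists of other splicing genes and cell type markers, and the rule for full statistics were chosen with earlier results of these data known. That rule was up to 8 members with the smallest p in each direction, members called opposite to their fold change after the GC correction, 2 of the highest mean level in each family, the 3 smallest p in each direction for exercise, and up to 3 members of each list, of which 1 is not reported here. Replicate numbers were checked as pairs: between exercise and sedentary libraries, deviations from group means correlated at 0.194 to 0.364 for equal numbers, all over 0.1. Their median of 0.262 was no higher than that of unequal numbers within a set, 0.265, so pairs cannot be told apart from sets. The main fit has no pairs, and all exercise values come from it unless another fit is named. Equal numbers of CD47-KO and sedentary libraries correlated at −0.102 to 0.047.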

Additional observations from a re-analysis of the deposited data

Results flagged for a closer look

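Of 60 groups of 6 libraries examined (exercise and sedentary, for each of the 30 genes), 2 held a library far from the others, where chance flags about 1 in 20. Hnrnpa3 was 0.433 CPM in sedentary replicate 4, against 11.3 to 16.7 CPM in the other sedentary libraries. Hnrnpul1 was 28.6 CPM in sedentary replicate 6, against 78.2 to 96.2 CPM in the others. Sedentary replicate 6 also had the lowest summed level of the 30 genes, 1076 CPM. Hnrnpa3 in CD47-KO replicate 1, a group too small for this look, was 13.8 CPM, against 48.7 and 48.4 CPM in the other CD47-KO libraries. The causes were not tested.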

How the results depend on the processing

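The 30 genes' counts of calls changed by at most 1.5 times with RLE factors, DESeq2, limma-voom, other filters, no robust dispersion, only the groups compared, no mitochondrial and clone symbols, the replicate block and the library sets, except the count of genes lower in CD47-KO, which was 1 (Srsf4) in place of 0, against sedentary and against exercise, with the replicate block, the library set as batch and numbers 1 to 3 alone. The lowest mean was 5.40 CPM; whether depth or the number of CD47-KO libraries limited the calls was not tested. Leaving out each library gave 12 to 21 genes higher and 0 lower against sedentary (median log2 fold change 0.76 to 0.92), 13 to 21 higher and 0 lower against exercise (0.75 to 0.93) and 0 for exercise (−0.035 to 0.023). With the GC correction as well, it gave 1 to 4 higher and 0 to 2 lower against sedentary (median −0.025 to 0.082) and 2 to 6 higher and 0 to 2 lower against exercise (−0.075 to 0.086).

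The GC correction gave 4 genes higher, 2 lower and a median of 0.040 against sedentary, and 5, 1 and 0.039 against exercise. With the replicate block as well these were 4, 3 and −0.037 against sedentary and 5, 6 and −0.049 against exercise; with length as well, 2, 2 and 0.0084 and 6, 1 and 0.011; on the longest transcript, 4, 1 and 0.28 and 9, 0 and 0.087. Within numbers 1 to 3 the corrected values were 6, 5 and −0.0056 against sedentary and 6, 5 and −0.041 against exercise, and within numbers 4 to 6 they were 5, 3 and 0.18 and 7, 3 and 0.055 (median for exercise 0.11). Uncorrected medians in numbers 4 to 6 were 0.95 against sedentary, 0.97 against exercise and 0.048 for exercise, and in numbers 1 to 3 it was 0.91 against exercise. The replicate block gave 22 higher and 1 lower against sedentary, 20 and 1 against exercise and 0 for exercise, where it changed no call. CD47-KO numbers share only a number; with the block and the GC correction, Hnrnpc against sedentary (−0.46, adjusted p = 0.0706 in edgeR) and Srsf1 against exercise (0.53, adjusted p = 0.0671) were not called.

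Signs turned for these log2 fold changes of CD47-KO, or of exercise where named. With the GC correction these were Hnrnpa2b1 −0.18, Hnrnpab 0.16, Hnrnpd −0.37, Hnrnpc −0.59, Hnrnph1 −0.18, Hnrnpk −0.29, Hnrnpll −0.12, Hnrnpr −0.27, Srsf5 −0.17, Srsf6 −0.11, Srsf9 0.0027, Srsf11 −0.15, Srsf3 −0.84, Srsf7 −0.68, Tardbp −0.067, Srpk2 −0.21 and Dhx15 −0.36 against sedentary, and Hnrnph1 −0.26, Hnrnpa2b1 −0.41, Srsf11 −0.13, Hnrnpc −0.76, Srsf3 −0.67 and Srsf5 −0.095 against exercise. With the GC correction and replicate block these were Hnrnpa2b1 −0.37, Hnrnpa3 −0.097, Hnrnpab 0.075, Hnrnpd −0.62, Hnrnpc −0.46, Hnrnph1 −0.38, Hnrnpk −0.22, Hnrnpll −0.029, Hnrnpm −0.036, Hnrnpr −0.59, Hnrnpul2 −0.21, Srsf5 −0.61, Srsf6 −0.038, Srsf9 0.49, Srsf11 −0.44, Srsf3 −0.72, Srsf7 −0.36, Srpk2 −0.53 and Dhx15 −0.40 against sedentary, and Hnrnph1 −0.47, Hnrnpa2b1 −0.64, Srsf11 −0.42, Hnrnpc −0.62, Srsf3 −0.57 and Srsf5 −0.54 against exercise. With the correction for GC content and length these were Hnrnpa2b1 −0.22, Hnrnpab 0.17, Hnrnpd −0.41, Hnrnpc −0.63, Hnrnph1 −0.23, Hnrnpk −0.35, Hnrnpll −0.22, Hnrnpr −0.24, Srsf5 −0.20, Srsf6 −0.17, Srsf9 0.14, Srsf10 −0.020, Srsf11 −0.22, Srsf3 −0.93, Srsf7 −0.70, Tardbp −0.16, Srpk2 −0.25 and Dhx15 −0.43 against sedentary, and Hnrnph1 −0.28, Hnrnpa2b1 −0.44, Srsf11 −0.15, Hnrnpc −0.79, Srsf3 −0.73 and Srsf5 −0.12 against exercise. With RLE factors this was Hnrnpab 0.0086 against sedentary. With no filter this was Hnrnpab 0.028 against sedentary. With libraries numbered 4 to 6 alone these were Hnrnpab 0.14 and Hnrnpul1 0.27 against sedentary. With the correction on the longest transcript these were Hnrnpab 0.061, Hnrnpd −0.25, Hnrnpc −0.16, Hnrnph1 −0.044, Hnrnpk −0.063, Hnrnpr −0.28, Hnrnpul1 0.28, Srsf5 −0.39, Srsf6 −0.36, Srsf3 −0.81, Srsf7 −0.49, Tardbp −0.12 and Srpk2 −0.25 against sedentary, and Hnrnph1 −0.11, Hnrnpc −0.30, Srsf3 −0.64 and Srsf5 −0.33 against exercise. With the 2 groups compared alone this was Hnrnpab 0.025 against sedentary. With DESeq2 this was Hnrnpab 0.0085 against sedentary. With the replicate block these were Hnrnpul2 −0.11 and Srsf9 0.045 against sedentary. With the library set as batch these were Hnrnpul2 −0.12 and Srsf9 0.039 against sedentary. With libraries numbered 1 to 3 alone these were Hnrnpul2 −0.12 and Srsf9 0.17 against sedentary, and Srsf10 0.039 of exercise against sedentary. Leaving out 1 library gave −0.091 to 0.065 for Hnrnpab against sedentary (above 0 without CD47-KO replicate 2 or 3, exercise replicates 2 to 6, or sedentary replicate 2, 4 or 6), and turned Hnrnpul1 to 0.0058 without sedentary replicate 2. The causes were not tested. With the GC correction within numbers 1 to 3, the values against sedentary were −0.48 for Hnrnpc and −0.68 for Srsf3. Within numbers 4 to 6 they were −0.69 and −0.98. Against exercise Hnrnpc was −0.52 and −0.96 in these sets. Other signs in the GC-corrected fits within a set, or without 1 library, are not listed here. Outside those GC-corrected fits, the other results for single genes kept their direction.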
